A study of Mus musculus with 9 samples.

Results

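The integrated stress response is the route by which animal cells meet amino acid shortage, misfolded protein, heme shortage and viral RNA. Kinases that sense these stresses phosphorylate the translation factor eIF2 alpha, general translation falls, and the mRNA of the transcription factor ATF4 is translated more. ATF4, with CHOP and C/EBP partners, then raises the transcription of genes for amino acid synthesis and uptake, for the loading of tRNA with amino acids, and for inhibitors that end the response. ATF4 itself is controlled in large part at translation, so its mRNA is a weaker readout of the response than the mRNA of its target genes.

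The levels of 36 listed genes of this response were examined in RNA of mouse uterus: 2 kinases of eIF2 alpha, 6 transcription factors, 6 feedback and stress effectors, 6 enzymes of asparagine, serine and one-carbon synthesis, cytosolic aminoacyl-tRNA synthetases and amino acid transporters. Members were taken by gene symbol, 35 had a transcript in the deposited tables of 35934 genes, and 30 were among the 12790 genes tested. There were 9 libraries, 3 from each of 3 groups of C57BL/6 females. In the arrested group the uterine horns received medium in which 18 arresting human embryos had been cultured, pooled. The competent group received pooled medium of 9 developmentally competent human embryos, and the control group received embryo culture medium that had held no embryo. All the females were immature, 25 days old by the treatment protocol and 21 days old by the design text, which was not settled. All had also been primed with progesterone (1 mg, once) and estradiol (10 mg/kg per day) over 3 days, and 50 µl was injected into the horns. Each medium was 1 pool, so the embryos are not replicates, and the labels do not say whether each library is a separate animal; p-values measure the spread between these libraries, which may be technical. The labels give no time between injection and collection. The question the design addresses, per its title, is whether abnormal embryos call forth an endoplasmic reticulum stress response in the mother.

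The response has a known DNA site at its target genes, the C/EBP-ATF response element, whose core is the motif TGATGNAA, N being any base. Promoter windows of 300 bases, 250 before and 50 after each gene's start, were searched for it on both strands in RefSeq sequence of GRCm38.p6. A match was present in 11 of the 29 members that had a window (37.9%), against 1219 of 27025 genes (4.51%). The members with a match were Atf3, Trib3, Chac1, Vldlr, Asns, Slc7a11, Aars, Gars, Iars, Tars and Yars. Sites of 8 of these genes are shown to give the bases around the match. The other members with a window, among them Atf4, Ddit3, Shmt2 and Mthfd2, had no match in it. Bases outside the windows were not searched. Each line is read 5′ to 3′ along the strand that carries the motif, and capitals mark the match.
Asns: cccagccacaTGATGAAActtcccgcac
Slc7a11, first site: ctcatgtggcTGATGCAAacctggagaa
Slc7a11, second site: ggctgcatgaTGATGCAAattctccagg
Atf3: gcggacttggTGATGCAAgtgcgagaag
Trib3: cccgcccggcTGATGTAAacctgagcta
Chac1: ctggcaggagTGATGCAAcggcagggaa
Vldlr: ctaggagcgcTGATGCAActattgctgc
Gars: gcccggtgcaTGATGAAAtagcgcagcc
Tars: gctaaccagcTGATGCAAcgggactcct
The Asns stretch lies at chr6:7693215-7693242 on the minus strand, the strand of the gene, and the far edge of its motif is 23 bases before the start. The first Slc7a11 stretch, chr3:50443662-50443689, is on the minus strand, that of the gene, and the second, chr3:50443643-50443670, on the plus strand, with far edges 66 and 47 bases before the start. The other stretches lie on the strand opposite to their gene. On the plus strand are those of Atf3 (chr1:191183426-191183453), Trib3 (chr2:152344029-152344056) and Tars (chr15:11399656-11399683). On the minus strand are those of Chac1 (chr2:119351039-119351066), Vldlr (chr19:27216810-27216837) and Gars (chr6:55037961-55037988). The Trib3 motif lies after the start of the gene, 14 to 21 bases from it. A match describes letters in these windows and does not show that a factor binds there.

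Reading the levels calls for 1 caution about the libraries. Each library listed 92839 annotated transcripts, and between 73.4 and 74.7% of them stood at 0. Values are FPKM (fragments per kilobase of transcript, scaled to the fragments of the library), estimated by dividing fragments among overlapping transcripts, so a gene can be listed at 0 where that division failed. Depth in reads is unknown. The ends of the deposited confidence intervals corresponded to a whole number of fragments, within 0.02, in 112 of 227 values of members that rest on 1 transcript. Among those, Chac1 rested on 11 to 38 fragments, Atf3 on 26 to 100, Mthfd2 on 50 to 187, Asns on 218 to 297 and Atf4 on 1118 to 2064, so the low members carry the larger counting error. Arrested library 3 stood apart on the first principal component, at -80.9 against -7.52 to 25.9 in the other 8. None of 7 uterus markers (Esr1, Pgr, Hoxa10, Hoxa11, Emx2, Hand2, Foxa2) was at 0 in all libraries, with sums of 86.4 to 203 FPKM in arrested, 86.0 to 123 in competent and 122 to 186 in control libraries. Esr1 was above 0 in arrested library 2 only (16.7 FPKM), and Pgr only in competent libraries 1 and 3 and control library 3 (19.1 to 23.7). Assembled transcripts that share an annotated intron with these genes held 43.3 to 103 FPKM for Esr1 and 12.1 to 48.5 for Pgr. The sums leave those transcripts out. Summed smooth muscle markers ranged from 868 to 2112 FPKM in arrested, 1363 to 2739 in competent and 1593 to 1671 in control libraries. The arrested minus competent difference was negative for all 6, with groups that overlapped for each. Summed stromal fibroblast markers were 1479 to 2675 FPKM in arrested, 1317 to 1877 in competent and 1727 to 2061 in control libraries. Of 5 tested, 4 were higher and 1 lower in arrested than in competent libraries, with a median of 0.59. The groups did not overlap for 2 of those higher, against 7.79% of all genes. The lower gene, Col1a1, had the largest difference of the list (-1.44), with groups that overlapped. Summed adipocyte markers reached 1301 FPKM in arrested library 2 and 163 at most in the other 8. Summed red cell markers were 1826 to 4248 FPKM in arrested, 655 to 3501 in competent and 821 to 1309 in control libraries, and the 4 tested were higher in arrested than in control libraries. The part of this cell makeup in the differences below was not tested, and in whole uterus fewer cells of a type and less RNA per cell cannot be told apart.

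Nearly all the listed genes were transcribed in primed uterus. The mean over the 9 libraries was at least 50 FPKM for 4 members, between 10 and 50 for 19, between 1 and 10 for 10 and under 1 for 2. Summed over transcripts, Sars, the serine tRNA synthetase, was highest (mean 143 ± 18.7 FPKM, SD, n = 9), of which 50.5% belonged to a transcript of 637 nucleotides and 21.3% to one of 1067. Its 1866-nucleotide transcript averaged 40.2 FPKM, below Atf4. Next came Atf4 (89.2 ± 8.09), Atf5 (63.1 ± 28.8) and Slc3a2 (50.8 ± 10.9). The sums of Sars and Atf4 did not overlap, while the range of Atf5 overlapped those of Atf4 and Slc3a2. At the low end stood Atf3 (1.96 ± 0.898), Trib3 (1.77 ± 0.591) and Chac1 (0.768 ± 0.431), targets known to be scarce until the response is active, and their ranges overlapped. Psph, the phosphatase of the last step of serine synthesis, was listed at 0 in all 9 libraries. Assembled transcripts that share an annotated intron with it held 24.8 FPKM in control library 3 only. An assembled transcript covered at most 39.6% of its exon bases there, and 19.1 to 19.5% in arrested library 1, competent library 2 and control library 2. Both enzymes of the preceding steps, Phgdh and Psat1, were detected in all 9 libraries.

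**Figure D1:**
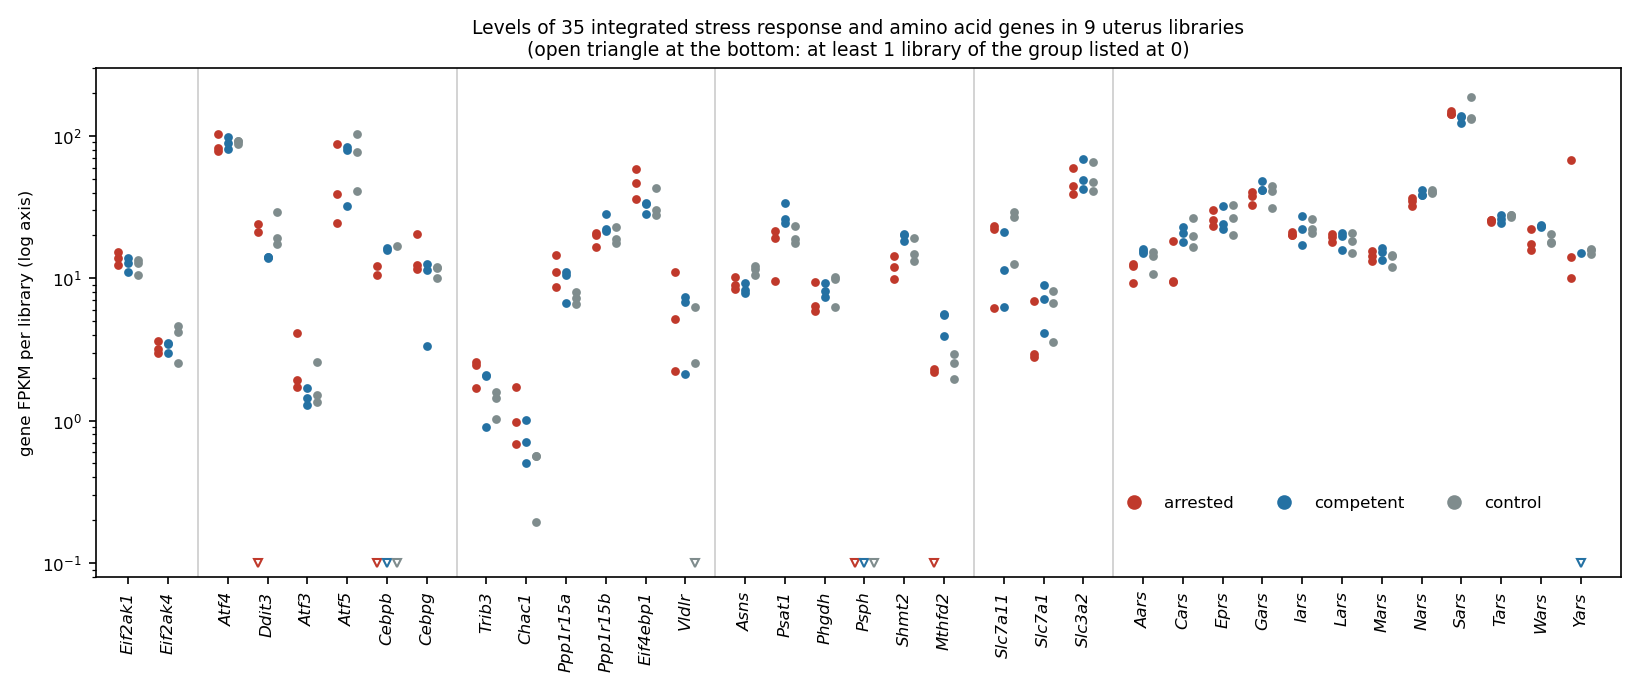
Gene FPKM (log axis) of 35 members in each library, by role from left to right: kinases, transcription factors, effectors, enzymes, transporters, tRNA synthetases. Points are libraries of the arrested, competent and control groups, and an open triangle marks a group with a library listed at 0; Atf4 stands between 78.3 and 102 FPKM in all 9, and Chac1 between 0.193 and 1.71.

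No member passed a limma test adjusted over all 12790 genes, at an adjusted p of 0.05, in any of the 3 comparisons. The share of all genes that did so was small too: 0.141% (18 genes, 0.0625% higher and 0.0782% lower) for arrested minus competent, 0.0547% (7 genes, 0.0313% higher and 0.0235% lower) for arrested minus control and 0.0469% (6 genes, 0.0156% higher and 0.0313% lower) for competent minus control. Differences are on the scale of log2(FPKM + 1), which understates changes of low genes. At an unadjusted p under 0.05, arrested minus competent took in 6 of the 30 members tested, 1 higher and 5 lower in arrested libraries, against 11.3% of all genes (5.52% higher and 5.82% lower); without arrested library 3 it took in 4 of 31, all lower, against 12.9%. In that comparison the groups did not overlap for 11 members, 3 higher and 8 lower in arrested libraries, against 16.6% of all genes (7.79% higher and 8.86% lower). Arrested minus control took in 1 member on each side at that p, against 5.44% of all genes (2.17% higher and 3.27% lower). Its groups did not overlap for 5 members, 2 higher and 3 lower in arrested libraries, against 8.85% of all genes (3.52% higher and 5.33% lower). Competent minus control took in 1 member, lower in competent libraries, against 5.41% of all genes (2.68% higher and 2.73% lower). Its groups did not overlap for 4 members, 3 higher and 1 lower in competent libraries, against 14.9% of all genes (6.79% higher and 8.06% lower). The comparisons share libraries with each other and are not independent.

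Medians of the members differed little from zero. For arrested minus competent, 11 members were higher and 19 lower, with a median of -0.08 beside -0.01 over all genes tested. For arrested minus control, 10 were higher and 20 lower, with a median of -0.08 beside -0.02. For competent minus control, 15 were higher and 15 lower, with a median of 0.01 beside -0.01. The role lists did not all lean one way between arrested and competent libraries. The median difference was -0.67 for 5 enzymes, -0.15 for 3 transporters, -0.09 for 11 tRNA synthetases, -0.04 for 5 transcription factors, 0.06 for 2 kinases and 0.27 for 4 effectors. Splitting by the promoter match gave a median of 0.03 for the 8 tested members that hold it, 4 higher and 4 lower, and of -0.10 for the 16 with a window and no match, 5 higher and 11 lower. The order was the other way in the other comparisons: -0.14 with a match and -0.08 without for arrested minus control, and -0.07 and 0.04 for competent minus control.

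**Figure D2:**
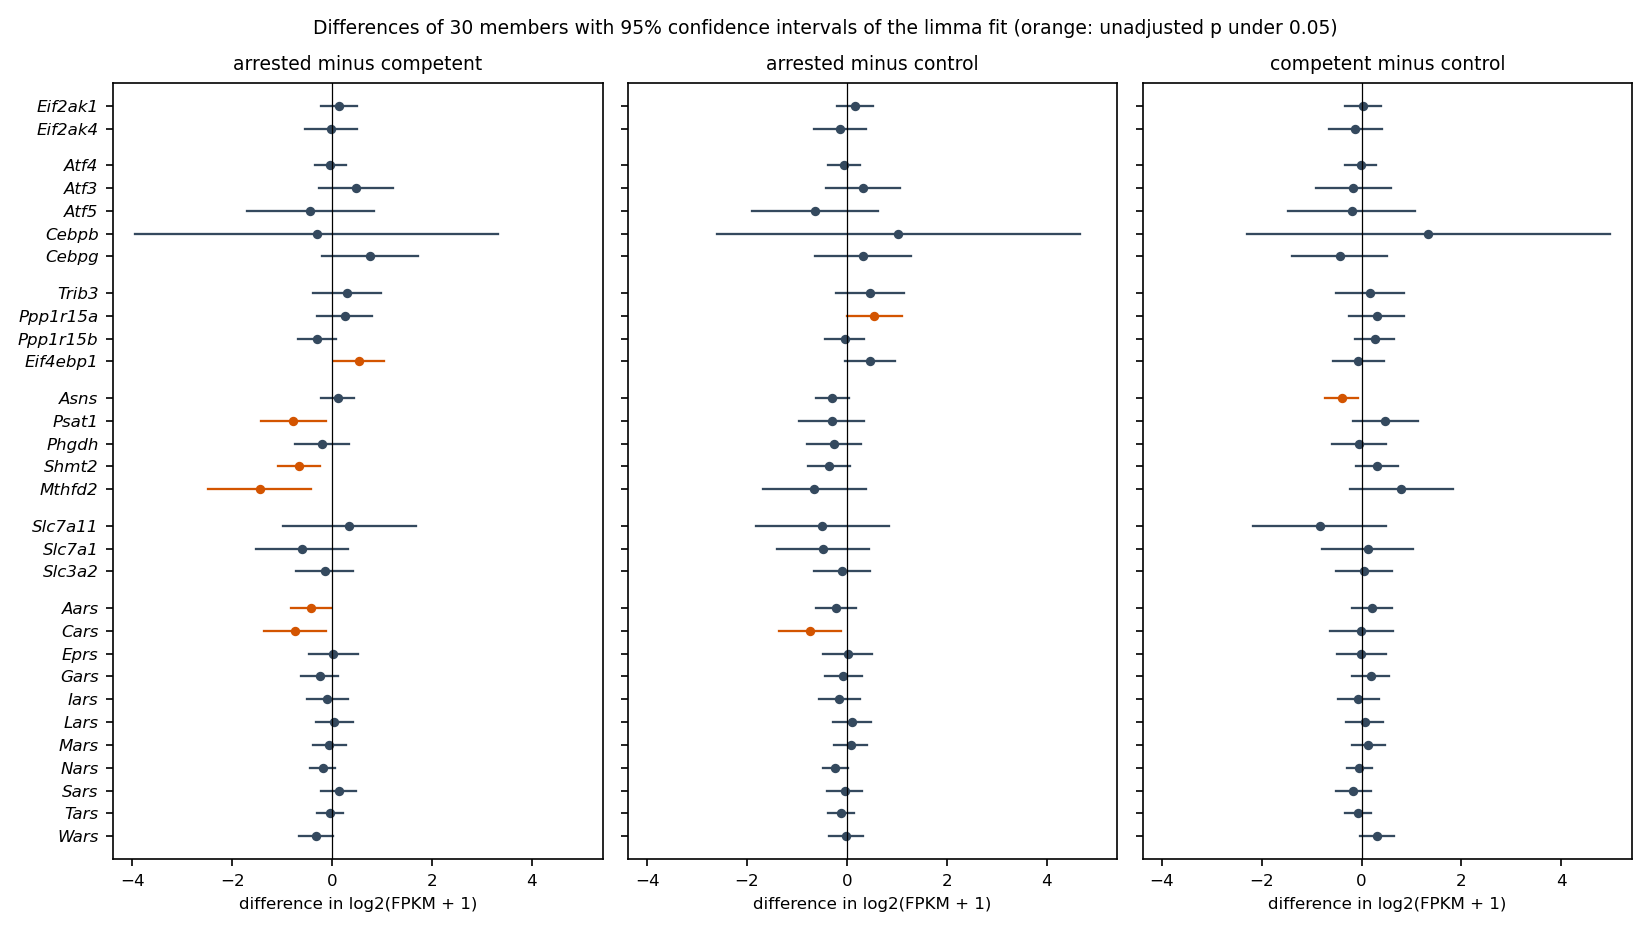
Differences in log2(FPKM + 1) of the 30 members tested, with 95% confidence intervals from the limma fit, for arrested minus competent (left), arrested minus control (middle) and competent minus control (right). Points right of the line are higher in the group named first, and orange marks an unadjusted p under 0.05, as for Shmt2 at -0.67 in the left panel; no adjusted p was under 0.05.

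The kinases were measured through Eif2ak1, which responds to heme shortage, and Eif2ak4, which senses uncharged tRNA. Eif2ak1 was at 15.2, 12.3 and 13.97 FPKM in arrested, 13.8, 11.03 and 12.8 in competent and 13.5, 12.7 and 10.6 in control libraries. Eif2ak4 was at 3.203, 3.62 and 2.97 FPKM in arrested, 3.43, 3.00 and 3.52 in competent and 4.21, 4.61 and 2.54 in control libraries. The 3 groups overlapped for both genes, and the largest of their 6 differences was 0.16 ± 0.16 (SE; Eif2ak1, arrested minus control; limma, unadjusted p = 0.333, adjusted p = 0.92). With assembled transcripts added, Eif2ak4 gave 0.57 for arrested minus competent, where annotated transcripts alone gave -0.02.

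Atf4, the central transcription factor, varied little between libraries. It stood at 78.3, 81.7 and 102 FPKM in arrested, 89.4, 98.9 and 80.9 in competent and 88.3, 91.5 and 91.4 in control libraries. The groups overlapped. The arrested minus competent difference was -0.04 ± 0.14 (SE), with a 95% confidence interval of -0.35 to 0.27 (limma, unadjusted p = 0.765, adjusted p = 0.948). The competent minus control difference was -0.02 ± 0.14 (interval -0.33 to 0.30).

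Ddit3 encodes CHOP, the partner of ATF4 that is known to promote cell death under lasting stress. It was listed at 0, 24.1 and 21.0 FPKM in arrested, 14.03, 14.1 and 13.9 in competent and 19.3, 17.4 and 29.3 in control libraries. Every competent library was below every control library. The 0 in arrested library 1 has no annotated or assembled transcript over the gene beside it, and was treated as a possible failed estimate. With that library dropped for this gene, the competent minus control difference was -0.58 ± 0.20 (SE, 8 libraries; limma, unadjusted p = 0.0232, adjusted p = 0.843) and the arrested minus competent difference 0.65 ± 0.23 (unadjusted p = 0.0232, adjusted p = 0.384). With the 0 kept, the arrested minus competent difference was -0.87 ± 1.09, so that library alone sets its sign. Neither version passed the adjusted threshold.

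Atf3, a factor induced by many stresses, was at 1.72, 4.11 and 1.93 FPKM in arrested, 1.29, 1.44 and 1.70 in competent and 1.34, 1.504 and 2.59 in control libraries. All the arrested values lay above all the competent values, narrowly, and the 4.11 of arrested library 2 was the highest of the 9. That value rests on 100 fragments, and the other 8 on 26 to 63. The arrested minus competent difference was 0.48 ± 0.33 (SE; limma, unadjusted p = 0.177, adjusted p = 0.646).

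Atf5, a relative of ATF4 that is also translated under stress, varied more within groups than between them. It was at 39.2, 88.2 and 24.4 FPKM in arrested, 83.3, 80.1 and 32.0 in competent and 40.9, 77.1 and 103 in control libraries. In competent library 3 assembled transcripts of Atf5 held another 28.8 FPKM, left out of these values, and no other library had any. Cebpg, a C/EBP that pairs with ATF4, was at 11.7, 12.3 and 20.3 FPKM in arrested, 11.4, 12.5 and 3.37 in competent and 11.8, 12.01 and 10.04 in control libraries. Arrested library 3 was highest and competent library 3 lowest, while the other 7 stood between 10.04 and 12.5.

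Cebpb, a C/EBP that uterine stroma is known to need for decidualization, was listed at 0 in 4 libraries. It was at 10.6, 12.2 and 0 FPKM in arrested, 16.2, 0 and 15.8 in competent and 0, 16.9 and 0 in control libraries. In 3 of the 4 libraries at 0, an assembled transcript on the opposite strand covered 93.8 to 97.4% of the exon bases of Cebpb, at 22.8 FPKM in arrested library 3, 22.4 in competent library 2 and 16.9 in control library 1. None was assembled there in control library 3 or in the 5 libraries with a Cebpb value. It is among the members tested with these zeros kept, at -0.31 ± 1.59 for arrested minus competent (SE; limma, unadjusted p = 0.852, adjusted p = 0.971). What the opposite-strand transcripts have to do with the zeros was not tested.

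Of 4 effectors tested, 3 were higher and 1 lower in arrested than in competent libraries. The groups did not overlap for 1 on each side, against 7.79% of all genes higher and 8.86% lower. Eif4ebp1 encodes an ATF4 target that holds back cap-dependent translation. It was at 36.3, 46.4 and 58.7 FPKM in arrested, 28.3, 33.1 and 33.9 in competent and 30.3, 27.7 and 43.2 in control libraries. All the arrested libraries were above all the competent ones and overlapped the control range. The difference was 0.53 ± 0.22 (SE) for arrested minus competent (limma, unadjusted p = 0.040, adjusted p = 0.417) and 0.47 ± 0.22 for arrested minus control (unadjusted p = 0.063, adjusted p = 0.908). Without arrested library 3 the first of these was 0.37 (unadjusted p = 0.134).

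Ppp1r15a encodes the induced subunit that directs a phosphatase to eIF2 alpha and so ends the response. It was at 8.67, 14.5 and 11.03 FPKM in arrested, 10.6, 6.66 and 11.1 in competent and 6.62, 7.28 and 8.06 in control libraries. Arrested libraries were above all the control libraries, by 0.55 ± 0.24 on the log2 scale (SE; limma, unadjusted p = 0.048, adjusted p = 0.908), and overlapped the competent range. Assembled transcripts held another 4.97 FPKM in arrested library 3, 3.42 in competent library 2 and 1.75 and 2.65 in control libraries 2 and 3. With assembled transcripts added, 0 members were higher for arrested minus control at a limma unadjusted p under 0.05. Arrested and control values of Ppp1r15a then overlapped. Its constitutive counterpart Ppp1r15b was at 16.6, 20.1 and 20.8 FPKM in arrested, 22.3, 28.3 and 21.4 in competent and 18.9, 22.9 and 17.6 in control libraries. There the arrested libraries were below all the competent libraries (-0.30 ± 0.17, unadjusted p = 0.107, adjusted p = 0.548).

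Trib3, a pseudokinase that binds ATF4 and restrains it, was at 1.71, 2.58 and 2.48 FPKM in arrested, 2.11, 0.907 and 2.07 in competent and 1.60, 1.03 and 1.45 in control libraries. Arrested values were above all the control values, by 0.46 ± 0.30 (SE; limma, unadjusted p = 0.160, adjusted p = 0.908). On the main transcript of 2026 nucleotides alone these groups overlapped, at 0.998, 0.638 and 2.48 FPKM in arrested and 0.965, 1.03 and 0.927 in control libraries. A transcript of 504 nucleotides held 0.71 and 1.57 FPKM in arrested libraries 1 and 2 and was listed at 0 in the control libraries. Chac1, which degrades glutathione, was at 0.683, 0.971 and 1.71 FPKM in arrested, 0.711, 0.507 and 1.01 in competent and 0.193, 0.561 and 0.563 in control libraries. These too were above all the control values in the arrested group. Chac1 was under the minimum mean of 1 FPKM and was tested only without that filter, where arrested minus control was 0.54 ± 0.22 (SE; limma, unadjusted p = 0.0392, adjusted p = 0.904). It rested on 15, 19 and 38 fragments in arrested libraries and on 12 and 11 in control libraries 2 and 3.

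Vldlr, a lipoprotein receptor gene known as an ATF4 target, varied widely within groups. Annotated transcripts gave 2.24, 5.20 and 11.1 FPKM in arrested, 6.76, 7.40 and 2.11 in competent and 0, 2.53 and 6.26 in control libraries. Assembled transcripts on the strand of the gene added between 2.13 and 10.3 FPKM in every library, and 7.97 in control library 1, the library at 0. With them the arrested minus control difference was 0.37 ± 0.36 (SE; limma, unadjusted p = 0.330, adjusted p = 0.903). With the 0 dropped it was 0.30 ± 0.66 (8 libraries; unadjusted p = 0.662, adjusted p = 0.983).

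**Figure D3:**
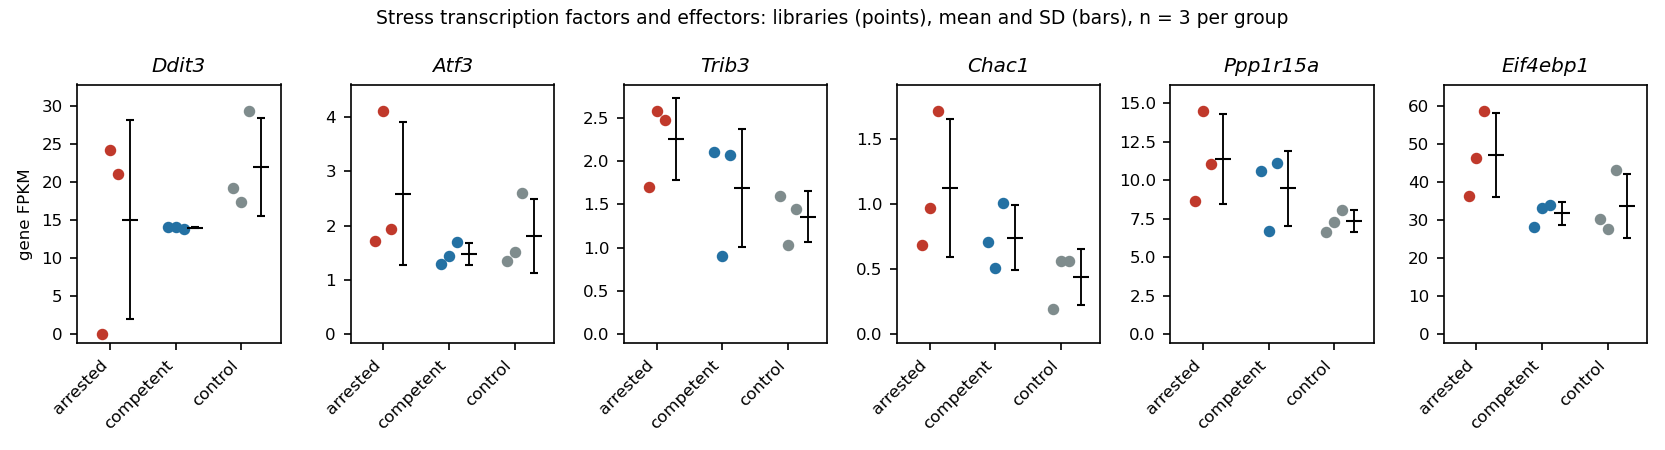
FPKM of Ddit3, Atf3, Trib3, Chac1, Ppp1r15a and Eif4ebp1 in each library (points) of the arrested, competent and control groups, with the mean and SD (bars, n = 3). Arrested values lie above all control values for Trib3, Chac1 and Ppp1r15a and above all competent values for Atf3 and Eif4ebp1, and Ddit3 has the 0 of arrested library 1. Values are sums over annotated transcripts. Arrested and control values overlap for Trib3 on its main transcript alone and for Ppp1r15a with assembled transcripts added.

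Of 5 enzymes tested, 3 (Shmt2, Mthfd2 and Psat1) had every arrested library below every competent library, against 8.86% of all genes, with no call after adjustment and with an overlap for Psat1 on its main transcript. Shmt2 makes glycine from serine in mitochondria, and Mthfd2 oxidizes the one-carbon unit that this releases. Shmt2 was at 9.96, 11.98 and 14.4 FPKM in arrested, 18.3, 20.2 and 20.4 in competent and 13.2, 19.3 and 14.7 in control libraries. Every arrested value was below every competent value, and the control values lay across the gap. The arrested minus competent difference was -0.67 ± 0.19 (SE; 12.1 ± 2.23 against 19.6 ± 1.18 FPKM, SD, n = 3 each; limma, unadjusted p = 0.00643, adjusted p = 0.281). It was between -0.79 and -0.54 with each library left out in turn. With assembled transcripts added it was -0.26 (unadjusted p = 0.556), and those transcripts held 7.86 and 4.58 FPKM in arrested libraries 1 and 2, none in arrested library 3 or the competent libraries, and 48.7 FPKM in control library 3.

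Mthfd2 was at 2.18, 2.29 and 0 FPKM in arrested, 3.92, 5.54 and 5.61 in competent and 2.52, 2.92 and 1.95 in control libraries. Competent libraries were above all the others. Arrested minus competent was -1.45 ± 0.45 (SE; limma, unadjusted p = 0.0118, adjusted p = 0.339), and competent minus control was 0.80 ± 0.45 (unadjusted p = 0.114, adjusted p = 0.957). The 0 in arrested library 3, which may be a failed estimate, widens the first of these: without that library it was -0.88 (unadjusted p = 0.008, adjusted p = 0.21). The values of 2.18 and 2.29 rest on 63 and 59 fragments, and the competent values on 145, 187 and 154.

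Psat1, the transaminase of serine synthesis, was singled out after its values were seen. It was at 21.3, 19.1 and 9.61 FPKM in arrested, 34.0, 24.4 and 26.0 in competent and 17.8, 18.7 and 23.2 in control libraries. Competent values were again above all the others. The arrested minus competent difference was -0.78 ± 0.28 (SE; limma, unadjusted p = 0.024, adjusted p = 0.377). Part of it came from short transcripts: a transcript of 588 nucleotides contributed 15.2 FPKM in competent library 1 and 13.1 in control library 3, and none elsewhere. On the main transcript of 2617 nucleotides alone the difference was -0.39 (unadjusted p = 0.269). Phgdh, the first enzyme of the same route, ranged from 5.85 to 9.42 FPKM in arrested, 7.37 to 9.33 in competent and 6.28 to 10.1 in control libraries, which overlapped.

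Asns makes asparagine and is among the best known targets of ATF4. It was at 8.42, 10.2 and 9.04 FPKM in arrested, 7.89, 9.22 and 8.32 in competent and 11.6, 10.5 and 12.3 in control libraries. All 6 libraries that received embryo-conditioned medium were below all the control libraries. The difference was -0.29 ± 0.14 (SE) for arrested minus control (limma, unadjusted p = 0.078, adjusted p = 0.908) and -0.40 ± 0.14 for competent minus control (unadjusted p = 0.0234, adjusted p = 0.844). In control library 3, however, 6.89 of its 12.3 FPKM belonged to a transcript of 431 nucleotides listed at 0 in the other 8. On the main transcript alone control library 3 was the lowest of the 9, at 5.40 FPKM, and the differences were 0.06 for arrested minus control and -0.05 for competent minus control. With each transcript weighted by its length they were -0.04 and -0.15. The members whose levels followed Asns most closely over the 9 libraries were Cars, Sars and Tars, with Pearson r of 0.45, 0.44 and 0.41 on log2(FPKM + 1), values that share library and depth. Cars and Sars also peak in control library 3 through short transcripts, of 539 nucleotides for Cars (17.8 of 26.4 FPKM) and 637 for Sars (107 of 189 FPKM).

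**Figure D4:**
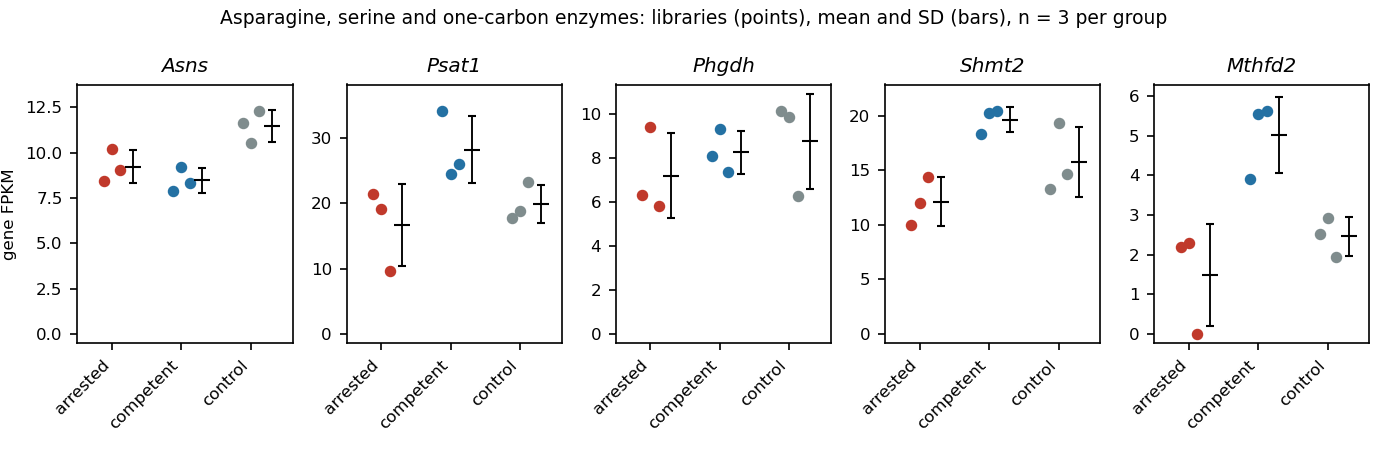
FPKM of Asns, Psat1, Phgdh, Shmt2 and Mthfd2 in each library (points) of the arrested, competent and control groups, with the mean and SD (bars, n = 3). Psat1, Shmt2 and Mthfd2 are lower in every arrested library than in every competent library, and Asns is lower in the arrested and competent libraries than in the controls. Values are sums over annotated transcripts. On the main transcript alone arrested and competent values overlap for Psat1, and for Asns control library 3 is the lowest of all, at 5.40 FPKM.

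The transporters varied widely within groups. Slc7a11 exchanges glutamate for cystine and pairs with the heavy chain Slc3a2, and Slc7a1 imports arginine and lysine. Slc7a11 was at 23.4, 22.3 and 6.22 FPKM in arrested, 21.3, 6.27 and 11.5 in competent and 27.1, 29.3 and 12.5 in control libraries. Slc7a1 was at 2.92, 6.94 and 2.80 FPKM in arrested, 8.96, 4.11 and 7.10 in competent and 8.12, 6.71 and 3.55 in control libraries. Slc3a2 was at 59.6, 39.0 and 44.5 FPKM in arrested, 68.4, 49.2 and 42.3 in competent and 47.3, 65.4 and 41.2 in control libraries. The 3 groups overlapped for each of the 3 genes, and the smallest p among their 9 differences was that of Slc7a1, arrested minus competent (-0.60 ± 0.40, SE; limma, unadjusted p = 0.170, adjusted p = 0.638).

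The tRNA synthetases, which load amino acids onto tRNA, ranged between 9.34 FPKM (Aars, arrested library 2) and 189 FPKM (Sars, control library 3) among the 11 tested. Between arrested and competent libraries 3 of these were higher and 8 lower, and the groups did not overlap for 5, against 16.6% of all genes: Sars was higher and Aars, Gars, Nars and Wars lower in arrested libraries. On its 1866-nucleotide transcript alone Sars did overlap, at 42.1, 38.2 and 45.7 FPKM in arrested and 38.6, 38.1 and 39.3 in competent libraries. Between arrested and control libraries 3 of the 11 were higher and 8 lower, with Nars and Tars not overlapping, against 8.85% of all genes. Between competent and control libraries 5 were higher and 6 lower, with Wars not overlapping, against 14.9% of all genes. On its 2831-nucleotide transcript alone Wars did overlap there. Nars was among the steadier members, ranging from 32.1 to 36.7 FPKM in arrested, 38.5 to 41.5 in competent and 39.9 to 41.7 in control libraries, and the whole range of Tars was 24.3 to 28.0 FPKM.

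Aars was at 12.1, 9.34 and 12.6 FPKM in arrested, 15.4, 16.03 and 15.02 in competent and 14.3, 15.3 and 10.8 in control libraries. All arrested values were below all competent values, by -0.43 ± 0.17 on the log2 scale (SE; limma, unadjusted p = 0.038, adjusted p = 0.410). Wars, which interferon also induces, was at 17.5, 22.2 and 15.9 FPKM in arrested, 23.6, 23.3 and 22.9 in competent and 18.0, 20.3 and 17.6 in control libraries. On these sums competent libraries were the highest, by 0.31 ± 0.15 over control (limma, unadjusted p = 0.072, adjusted p = 0.924). Arrested minus competent was -0.33 ± 0.15 (limma, unadjusted p = 0.059, adjusted p = 0.460). The 22.2 of arrested library 2 includes 8.08 from a transcript of 896 nucleotides seen in no other library. Likewise, the 23.3 of competent library 2 includes 3.28 from a transcript of 2764 nucleotides. On the 2831-nucleotide transcript alone competent and control values overlapped, with 20.0 in competent library 2 and 20.3 in control library 2. Assembled transcripts held another 5.88 FPKM in control library 3 only.

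Cars, the cysteine synthetase, was at 9.46, 18.4 and 9.52 FPKM in arrested, 18.0, 23.0 and 20.8 in competent and 19.8, 16.6 and 26.4 in control libraries. Arrested libraries 1 and 3 were lowest. The difference was -0.74 ± 0.27 (SE) both for arrested minus competent (limma, unadjusted p = 0.0256, adjusted p = 0.381) and for arrested minus control (unadjusted p = 0.025, adjusted p = 0.885). Its transcripts differed in this. The 2462-nucleotide transcript stood between 7.24 and 9.46 FPKM in all 9 libraries, and a transcript of 539 nucleotides was listed at 0 in arrested libraries 1 and 3 and at 8.76 to 17.8 FPKM in the other 7. With each transcript weighted by its length the arrested minus competent difference was -0.16 (unadjusted p = 0.314).

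Yars, the tyrosine synthetase, was listed at 10.0, 14.03 and 67.3 FPKM in arrested, 15.04, 0 and 0 in competent and 15.8, 14.7 and 16.1 in control libraries. The 67.3 of arrested library 3 includes 47.1 from a transcript of 647 nucleotides listed at 0 in the other 8. In competent libraries 2 and 3 an assembled transcript of the same strand covered the exon bases at 10.8 and 10.3 FPKM. With assembled transcripts added, arrested minus competent was 1.05 ± 0.54 (SE; limma, unadjusted p = 0.088, adjusted p = 0.471). With both zeros dropped, competent library 1 is the only one left in its group, and the difference was 0.48, with no test given.

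**Figure D5:**
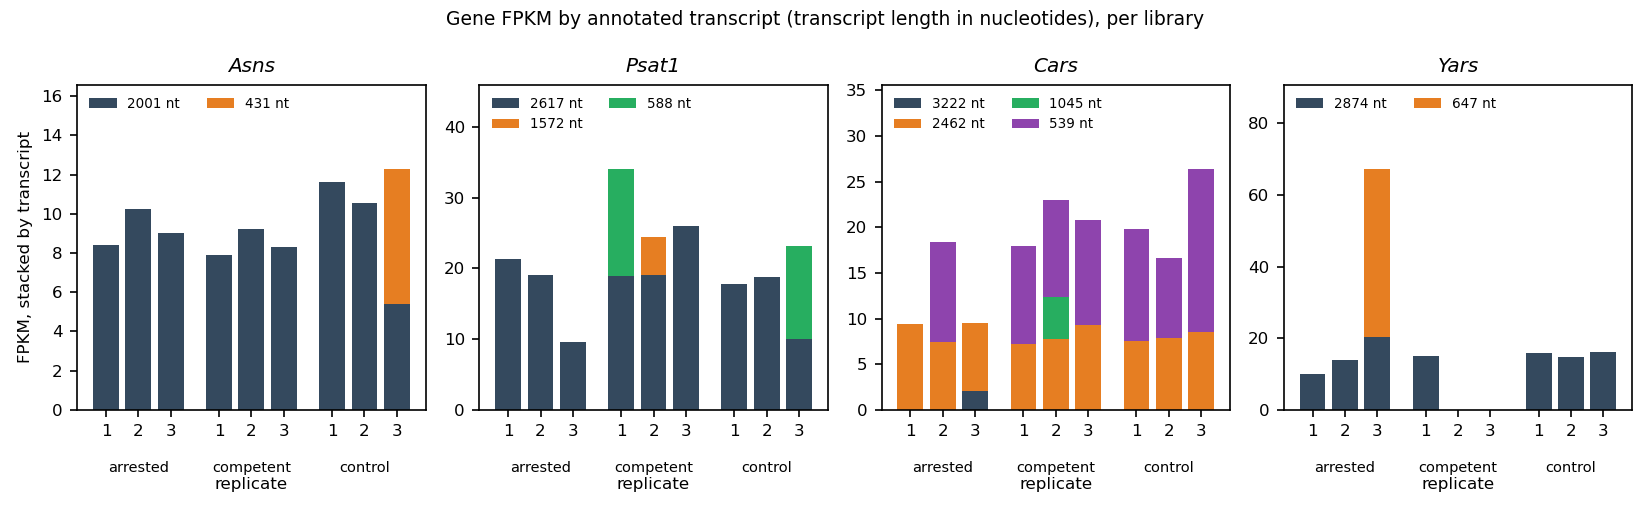
FPKM of Asns, Psat1, Cars and Yars stacked by annotated transcript (colours, with transcript length in nucleotides) in each library of the arrested, competent and control groups. Short transcripts present in some libraries only make the larger steps: 431 nucleotides for Asns in control library 3, 588 for Psat1, 539 for Cars and 647 for Yars in arrested library 3.

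Other genes of the pathway were read from lists that complete it. Of 9 tested eIF2 kinases, eIF2 and eIF2B subunits, 2 were higher and 7 lower in arrested than in competent libraries (median -0.11), and no gene passed the adjusted threshold in any comparison. Eif2ak2, the kinase for double-stranded RNA, had the smallest p, at 7.58, 11.8 and 7.48 FPKM in arrested, 13.2, 11.4 and 12.4 in competent and 12.7, 11.1 and 11.2 in control libraries. The 8 remaining cytosolic tRNA synthetases gave 1 higher and 7 lower (median -0.12), and the 16 mitochondrial ones, which ATF4 also reaches in part, gave 10 higher and 6 lower (median 0.11). No gene of either list passed. Vars, the valine synthetase, was at 9.38, 34.3 and 12.1 FPKM in arrested, 34.9, 44.5 and 34.1 in competent and 14.2, 14.7 and 36.7 in control libraries. On these annotated transcripts arrested library 2 and control library 3 stood with the competent libraries. Assembled transcripts of Vars, left out of these values, held another 23.97 and 23.8 FPKM in arrested libraries 1 and 3. They held 14.05 and 21.4 FPKM in competent libraries 1 and 3, and 26.5, 29.8 and 28.3 in control libraries. Arrested library 2 and competent library 2 had none, so the grouping holds for annotated transcripts only. Of 14 further amino acid enzymes and carriers, 8 were higher and 6 lower (median 0.02), and none passed the adjusted threshold.

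Of 11 tested further stress genes that depend on ATF4, 7 were higher and 4 lower in arrested than in competent libraries (median 0.13). In that comparison 1 passed the adjusted threshold, against 0.141% of all genes. The list was chosen with earlier results of these data known. Ddit4, an inhibitor of the growth kinase complex mTORC1, fell to 51.8, 52.6 and 47.3 FPKM in arrested libraries, against 128, 112 and 132 in competent libraries. It was at 77.7, 102 and 112 FPKM in control libraries. Arrested libraries were below all the others. The arrested minus competent difference was -1.27 ± 0.15 (SE; limma, adjusted p = 0.0276), and arrested minus control was -0.91 ± 0.15 (unadjusted p = 0.000289, adjusted p = 0.336). The call was lost without arrested library 1 or 3 or any 1 of the competent libraries (adjusted p between 0.053 and 0.134), at differences of -1.35 to -1.23.

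Stc2 and Aldh18a1 had the same order of groups, short of the threshold. Stc2, a secreted glycoprotein, was at 12.6, 20.5 and 19.8 FPKM in arrested, 31.0, 29.8 and 29.1 in competent and 24.5, 26.4 and 26.1 in control libraries (arrested minus competent -0.76 ± 0.18, SE; limma, unadjusted p = 0.00271, adjusted p = 0.223). Aldh18a1, the first enzyme of proline synthesis from glutamate, was at 12.8, 12.9 and 11.1 FPKM in arrested, 17.2, 15.6 and 18.7 in competent and 15.02, 16.6 and 13.7 in control libraries (-0.45 ± 0.14; unadjusted p = 0.0114, adjusted p = 0.332). Arrested values were below all the others for both genes. Slc1a5, the glutamine carrier, was at 97.3, 84.0 and 124 FPKM in arrested, 180, 156 and 148 in competent and 130, 202 and 234 in control libraries. Its arrested minus competent difference of -0.67 ± 0.23 (unadjusted p = 0.0192, adjusted p = 0.369) turned to 0.12 on its main transcript alone. Sqstm1, a receptor of selective autophagy, was at 142, 180 and 183 FPKM in arrested, 153, 200 and 146 in competent and 239, 234 and 218 in control libraries. Both embryo-conditioned groups were below all the controls, by -0.46 ± 0.16 (SE) for arrested (limma, unadjusted p = 0.0178, adjusted p = 0.885) and -0.48 ± 0.16 for competent libraries (unadjusted p = 0.0147, adjusted p = 0.838), and the first of these was 0.40 on the main transcript alone.

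Other genes of these lists stood the other way. Gpt2, an alanine aminotransferase, was at 16.4, 13.8 and 47.4 FPKM in arrested, 13.9, 9.31 and 12.3 in competent and 11.5, 13.2 and 14.6 in control libraries. Arrested library 3 was far above the other 8, and arrested minus competent was 0.87 ± 0.41 (SE; limma, unadjusted p = 0.0629, adjusted p = 0.470). Cebpd, another C/EBP, and Cbs, which joins homocysteine to serine, are named after their values were seen. Cebpd was at 21.4, 26.0 and 46.3 FPKM in arrested, 18.4, 2.46 and 15.3 in competent and 29.5, 21.1 and 17.9 in control libraries (arrested minus competent 1.57 ± 0.62, SE; limma, unadjusted p = 0.0330, adjusted p = 0.394). In competent library 2, the library at 2.46, an assembled transcript of Cebpd held another 14.6 FPKM, and no other library had one. The difference leaves that transcript out. Cbs was at 14.6, 14.7 and 21.6 FPKM in arrested, 10.8, 8.37 and 8.97 in competent and 21.4, 26.7 and 6.30 in control libraries (0.78 ± 0.45; unadjusted p = 0.12, adjusted p = 0.564). Arrested values were above all the competent values and overlapped the control values for both genes.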

How the data were processed

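Per the labels, 1 µg of total RNA from whole uterus went into each TruSeq library, read on an Illumina HiSeq. Per the submitters' processing notes, Bowtie 0.12.2 and Cufflinks were used with mm9; what each did, the Cufflinks version and any options are not stated there. FPKM was computed by the authors for each transcript, with the ends of a confidence interval. The deposited coverage signal, in proportion to FPKM within a library, served as an alternative. Annotated transcripts were assigned to genes by GENCODE vM1 (NCBIM37), and the FPKM of a gene is their sum, without rescaling.

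The members and lists were chosen with earlier results of these data known. 1 member is not analysed here. A mean of 1 FPKM or more left 13333 genes, of which 543 listed at 0 in 1 or 2 of 9 libraries with a median above 5 FPKM were left out as possible failed estimates, Ddit3, Vldlr and Yars among them. limma 3.58.1 (R 4.3.3; empirical Bayes with a mean trend) was fitted to log2(FPKM + 1) of all 9 libraries with 3 group means, with Benjamini-Hochberg adjustment at 0.05 over 12790 genes, and was tested on simulated data. Per-library values are given for Atf4, Ddit3, Atf3, Trib3, Chac1 and Asns, for members listed at 0 in part of a group and for the 3 of each role with the smallest p. Other lists name at most 3 genes each, beside those that passed. The 23 alternatives were other gene summaries, pseudocounts, filters, scalings and trends, a replicate block and each library left out; weighting transcripts by length and setting possible failed estimates to missing were chosen after seeing the data. Python 3.11.15, pandas 2.3.3, numpy 2.4.6 and matplotlib 3.10.9 were used.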

Additional observations from a re-analysis of the deposited data

How the results depend on the processing

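No member passed the adjusted threshold under any of the 23 alternatives, so each comparison kept a count of 0. The count of all genes called moved by over 1.5 times under some: for arrested minus competent (18 genes) it was 5 with the replicate block and 7 to 40 with 1 library left out; for arrested minus control (7 genes) it was 3 on the main transcript alone and 7 to 19 with 1 library left out; for competent minus control (6 genes) it was 10 without a filter, 1 with the replicate block, 2 with transcripts weighted by length and 2 to 13 with 1 library left out. Deviations of same-numbered libraries correlated between -0.07 and 0.12, and those of differently numbered libraries of different groups between -0.10 and 0.09. Such weak values cannot show whether the replicate numbers pair the libraries. The replicate block is used nowhere else. It ended the call of Ddit4 (adjusted p = 0.131), as did a fit without a mean trend (0.0627). The causes were not tested.

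Of 30 single genes followed in 3 comparisons, these changed the sign of their difference (log2), all of them without a call. With assembled transcripts added, arrested minus competent was 0.57 for Eif2ak4 and -0.39 for Slc7a11, arrested minus control was 0.28 for Eif2ak4, and competent minus control was 0.10 for Atf5, -0.47 for Shmt2, -0.094 for Slc7a1, -0.19 for Slc3a2, -0.0092 for Aars and -0.16 for Farsa. On the main transcript alone, arrested minus competent was 0.12 for Slc1a5 and -0.40 for Vars2, arrested minus control was 0.062 for Asns, 0.071 for Psat1, 0.10 for Slc3a2, 0.40 for Sqstm1 and 0.25 for Farsa, and competent minus control was -0.15 for Trib3, -0.036 for Ppp1r15b and 0.21 for Vars2. With transcripts weighted by length, arrested minus competent was -0.32 for Vars2, arrested minus control was 0.080 for Sqstm1, and competent minus control was -0.058 for Trib3, 0.039 for Cars and 0.060 for Slc1a5. With median-ratio size factors, arrested minus control was 0.012 for Wars, and competent minus control was 0.0064 for Atf4 and 0.017 for Cars. With coverage, arrested minus competent was -0.071 for Sqstm1.

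With 1 library left out, arrested minus competent ran from -0.16 to 0.032 for Atf4, -0.066 to 0.16 for Sqstm1, -0.078 to 0.031 for Eif2ak4, -1.67 to 0.90 for Cebpb, -0.32 to 0.039 for Slc3a2 and -0.056 to 0.92 for Slc7a11. Arrested minus control ran from -0.17 to 0.017 for Atf4, -0.12 to 0.062 for Ppp1r15b, -0.15 to 0.080 for Wars, -0.84 to 0.13 for Vars, -0.27 to 0.086 for Slc3a2, -0.51 to 0.028 for Psat1 and -0.86 to 0.081 for Slc7a11. Competent minus control ran from -0.063 to 0.11 for Eif2ak1, -0.19 to 0.12 for Eif4ebp1, -0.17 to 0.39 for Slc7a1, -0.14 to 0.24 for Slc3a2, -0.15 to 0.17 for Cars, -0.015 to 0.19 for Farsa, -0.087 to 0.057 for Atf4, -0.57 to 0.24 for Atf5, -0.73 to 0.084 for Cebpg, -0.33 to 0.0070 for Eif2ak4 and -0.28 to 0.028 for Atf3.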
